A study of Mus musculus with 4 samples.

Results

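The 10 integrin chains described here are Itgav, Itgb3, Itgb5, Itgb1, Itgb2, Itgam, Itgax, Itgal, Itga4 and Itga5, which were chosen by gene symbol. They occupy 11 rows of a table of 34745 genes, because Itgam names 2 rows, and all 11 rows passed the filter on low counts that left 12590 tested genes. RNA was measured in BMMs, macrophages grown from the bone marrow of wild-type male C57BL/6 mice of 8 weeks. After 12 h without FBS, the cells received RANKL (100 ng/mL) together with dimethyl itaconate (RANKL+DI) or its solvent DMSO (RANKL+Veh) and were collected 24 h later. Each group had 2 libraries, and no group without RANKL was measured. The paper's methods give 20 μM of DI and the labels 20 mM. The paper describes its in vitro work in general as repeated independently, with more repeats than the 2 libraries of a group here, and does not say whether those libraries came from separate mice or cultures. The p-values therefore measure only the spread between these libraries, which may be technical.

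Integrins are adhesion receptors made of 1 alpha and 1 beta chain. RANKL drives macrophages to become osteoclasts, the bone-resorbing cells, and the mature osteoclast attaches to bone mainly through alpha v beta 3, the vitronectin receptor, which binds proteins with an RGD motif such as osteopontin. Alpha v also pairs with beta 5, which osteoclast precursors carry and which gives way to beta 3 as osteoclasts mature. The beta 2 integrins are restricted to leukocytes and include LFA-1 (alpha L), Mac-1 (alpha M) and CD11c/CD18 (alpha X). Beta 1 pairs with alpha 4 and alpha 5 in receptors for fibronectin and, for alpha 4, also for VCAM-1.

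Promoter sequence from RefSeq (GRCm38.p6) was matched to 7 of the 10 chains: Itga4, Itga5, Itgam, Itgav, Itgax, Itgb1 and Itgb5. The 250 bases upstream of the start of Itgav (chr2:83724147-83724396, plus strand) and of Itgam (chr7:128062390-128062639, plus strand) are shown 5′ to 3′, because these were the matched chains with the largest decrease and the largest increase in the edgeR fit. Capitals mark GAGGAA or its reverse complement TTCCTC, letters found in sites of PU.1, a macrophage ETS factor.
Itgav: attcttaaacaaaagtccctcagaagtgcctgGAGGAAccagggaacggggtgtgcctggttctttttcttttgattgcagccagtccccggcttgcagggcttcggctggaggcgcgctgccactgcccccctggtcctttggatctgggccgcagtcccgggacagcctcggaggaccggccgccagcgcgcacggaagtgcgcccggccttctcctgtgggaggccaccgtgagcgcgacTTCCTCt
Itgam: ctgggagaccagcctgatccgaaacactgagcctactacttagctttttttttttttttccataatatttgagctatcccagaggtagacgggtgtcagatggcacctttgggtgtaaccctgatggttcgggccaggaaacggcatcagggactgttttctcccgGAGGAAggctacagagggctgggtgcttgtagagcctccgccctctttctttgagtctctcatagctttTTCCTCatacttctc
Itgav and Itgam, which moved in opposite directions, each held GAGGAA once on the plus strand (from -218 and from -84, counted back from the start) and once on the minus strand (from -7 and from -15). At least 1 match on either strand was present in 23.3% of 32851 mouse promoter windows of this length, and 2 or more in 3.54%. Itga5 held 1 match on the minus strand, at -127, and Itgb1 held 1 on the plus strand, at -9. Of the other motifs searched on both strands, TGANTCA (AP-1), which reads the same on both strands, was found only in the Itgax window among the 7, at -56, and in 6.75% of all windows. TGACNNNGC, the core of the antioxidant response element, was found only in the Itgb1 window among the 7, at -21, and in 10.2% of all windows. None of the 3 motifs was found in the windows of Itga4 and Itgb5. A match is a description of these letters and not a binding site.

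The libraries held between 16085692 and 19403480 counts, and levels are given as CPM, the count of a gene scaled to library size after TMM correction of that size. All 10 macrophage markers passed the filter, with a summed level of 27500 and 28400 CPM with DI and 22700 and 21900 CPM with vehicle. Lyz2 made up most of this sum, which without it was 4740 and 4620 CPM with DI and 4410 and 4250 CPM with vehicle. Of these 10 markers, 4 were higher and 3 lower with DI, and the lower ones were Cx3cr1 (log2 fold change -0.57), Cd14 (-0.51) and Fcgr1 (-0.60). Among all tested genes 14.8% were called. Of 10 osteoclast markers, 8 were tested, 6 were lower and 1 higher with DI, Calcr was at 0 and Oscar had at most 4 counts. Their summed level was 796 and 790 CPM with DI against 878 and 853 CPM with vehicle. Atp6v0d2, the marker that rose, was the largest part of this sum, at 509 CPM in both DI libraries and 427 and 418 CPM with vehicle. Without Atp6v0d2 the sum was 287 and 281 CPM with DI against 451 and 435 CPM with vehicle. The part of these shifts in the results was not tested. In bulk RNA, fewer cells of a type and less RNA per cell cannot be told apart.

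Within the vitronectin receptor, the alpha chain and the beta 3 chain moved apart, with Itgav 1.48-fold lower and Itgb3 1.47-fold higher with DI. Of the beta 2 family, Itgam (1.48-fold), Itgb2 (1.42-fold) and Itgal (1.28-fold) rose. The alpha chains of the fibronectin receptors fell slightly, Itga5 by 1.18-fold and Itga4 by 1.17-fold. Itgb1, Itgb5, Itgax and the second row named Itgam did not pass the threshold of an adjusted p under 0.05 (edgeR quasi-likelihood test, Benjamini-Hochberg adjustment over all tested genes). The test thus called 7 of the 11 rows, 4 higher and 3 lower. Among all tested genes 14.8% were called, 7.14% higher and 7.7% lower, and among the 5603 genes at least as abundant as the lowest of these chains the share was 23.8%. The groups did not overlap in 9 of the 11 rows, against 58.6% of all tested genes. The median log2 fold change of the 11 rows was 0.16, against 0.0012 for all tested genes. This middle value was that of the second row named Itgam, so the median counts Itgam by 2 rows. Without RANKL+Veh replicate 2, fewer of the 11 rows were called, and fewer of all tested genes as well. The median was 0.09 without RANKL+DI replicate 1 or RANKL+Veh replicate 1, 0.24 without RANKL+DI replicate 2 and 0.05 with scaling by library size only.

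**Figure D1:**
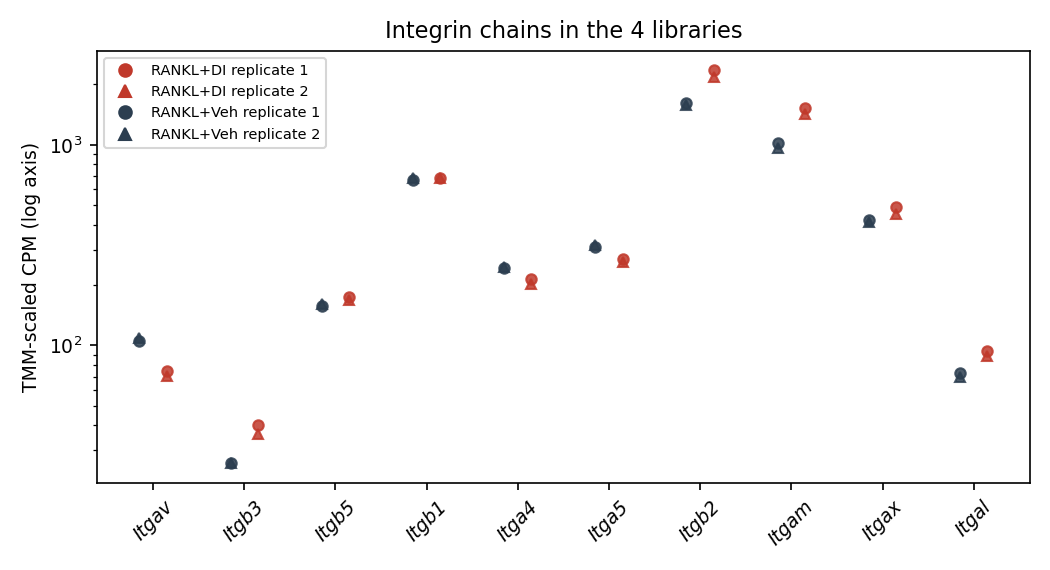
TMM-scaled CPM (log axis) of the 10 integrin chains in each library, with DI libraries in red, vehicle libraries in dark blue, replicate 1 as circles and replicate 2 as triangles. The libraries of every plotted chain but Itgb1 separate by treatment, as do those of 58.6% of all tested genes. Itgb3 lies between 25.9 and 40.1 CPM, Itgb2 between 1585 and 2351 CPM and Itgb1 between 670 and 684 CPM.

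Itgav encodes alpha v, the chain shared by alpha v beta 3 and alpha v beta 5 (ENSMUSG00000027087, chr2:83724397-83806916, plus strand, GRCm38). It was counted 1274 and 1328 times with DI and 1963 and 1821 times with vehicle, or 74.2 and 70.8 CPM against 105 and 109 CPM. Both DI libraries lay below both vehicle libraries. The log2 fold change was -0.57 (SE 0.055, 95% interval -0.70 to -0.43, adjusted p = 0.00275). An antisense gene, Gm13684, covers 5.90% of the exon bases of Itgav, and whether strand was used in counting is not stated in the sources used here.

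Itgb3 encodes beta 3, the osteoclast partner of alpha v (ENSMUSG00000020689, chr11:104608000-104670476, plus strand). The counts were 689 and 679 with DI and 482 and 434 with vehicle, or 40.1 and 36.2 CPM against 25.9 and 26.1 CPM. Here both DI libraries were above both vehicle libraries, and the difference of the means, 38.2 ± 2.78 against 26.0 ± 0.128 CPM (SD, n = 2 each), exceeded the spread of either group. The log2 fold change was 0.56 (SE 0.079, 95% interval 0.36 to 0.75, adjusted p = 0.00815 by edgeR). Of the tested genes, 10.7% had a larger absolute log2 fold change, and for Itgav the share was 10.2%.

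Itgb5 encodes beta 5, another beta chain of alpha v (ENSMUSG00000022817, chr16:33829665-33949153, plus strand). It reached 174 and 168 CPM with DI and 157 and 160 CPM with vehicle, from counts between 2670 and 3152. The groups did not overlap, but the log2 fold change of 0.11 (SE 0.043, 95% interval 0.0038 to 0.21) did not pass the threshold (adjusted p = 0.154 by edgeR). The interval corresponds to a fold change between 1.003 and 1.16.

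Itgb2 encodes beta 2, CD18, the chain that every leukocyte-restricted integrin of this family needs (ENSMUSG00000000290, chr10:77530252-77565708, plus strand). It was the most abundant of the 10 chains, with 40345 and 41041 reads in the DI libraries and 30166 and 26392 in the vehicle libraries, or 2351 and 2189 CPM against 1619 and 1585 CPM. Both DI libraries lay above both vehicle libraries. The log2 fold change was 0.50 (SE 0.043, 95% interval 0.40 to 0.61, adjusted p = 0.00190 by edgeR).

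Itgam encodes alpha M, CD11b, a marker of myeloid cells and a receptor for complement iC3b and ICAM-1 (ENSMUSG00000030786, chr7:128062640-128118491, plus strand). Its row held 26104 and 26752 reads in the DI libraries and 19080 and 16060 in the vehicle libraries, or 1521 and 1427 CPM against 1024 and 964 CPM. The groups were apart, and the log2 fold change of 0.57 (SE 0.048, 95% interval 0.45 to 0.68, adjusted p = 0.00186 by edgeR) was close to that of Itgb3. A second row with this symbol, which GENCODE M21 names Gm49368 (ENSMUSG00000108596, chr7:128062683-128128160), shares 68.7% of the exon bases of Itgam on the same strand, so that reads may be split between both rows. That row held 196 and 176 CPM with DI and 157 and 177 CPM with vehicle, its groups overlapped, and its log2 fold change of 0.16 (SE 0.078) did not pass the threshold (adjusted p = 0.245). With both rows summed, the log2 fold change of Itgam was 0.52 (adjusted p = 0.00192).

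Itgax, the gene of alpha X or CD11c, lies next to Itgam on chromosome 7 (ENSMUSG00000030789, chr7:128129547-128150657, plus strand). Its level was 490 and 450 CPM with DI and 421 and 412 CPM with vehicle. The groups did not overlap, and the log2 fold change was 0.17 (SE 0.050, 95% interval 0.05 to 0.30), with an adjusted p of 0.0740 by edgeR, above the threshold. The adjusted p was 0.0272 without a filter on low counts and 0.0320 without RANKL+DI replicate 2.

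Itgal, the gene of alpha L of the ICAM receptor LFA-1 (ENSMUSG00000030830, chr7:127296260-127335138, plus strand), reached 93.4 and 88.6 CPM with DI and 73.1 and 69.3 CPM with vehicle, from counts of 1604, 1662, 1361 and 1155 in this order. Both DI libraries were higher. The log2 fold change was 0.35 (SE 0.060, 95% interval 0.21 to 0.50, adjusted p = 0.0146 by edgeR). The call was lost without RANKL+DI replicate 1 (adjusted p = 0.0502) and without RANKL+Veh replicate 2 (adjusted p = 0.0669).

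Itgb1, the beta chain of the collagen, laminin and fibronectin receptors (ENSMUSG00000025809, chr8:128685654-128733200, plus strand), was counted 11713 and 12779 times with DI and 12482 and 11389 times with vehicle. Its level was 682 CPM in both DI libraries and 670 and 684 CPM with vehicle, so that the groups overlapped. The log2 fold change was 0.011 (SE 0.033, 95% interval -0.071 to 0.092, adjusted p = 0.871 by edgeR), an interval that spans fold changes of 0.952 to 1.07. The sign of this small value turned with library size scaling (-0.093) and without RANKL+Veh replicate 1 (-0.0044).

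Its alpha partners were both lower with DI. Itga5, the alpha chain of the classical fibronectin receptor (ENSMUSG00000000555, chr15:103344289-103366763, minus strand), reached 269 and 261 CPM with DI and 308 and 317 CPM with vehicle, and the groups did not overlap. Its log2 fold change was -0.24 (SE 0.040, 95% interval -0.33 to -0.14, adjusted p = 0.0144 by edgeR). Itga4, the alpha chain of VLA-4, which binds VCAM-1 (ENSMUSG00000027009, chr2:79255426-79333123, plus strand), reached 216 and 203 CPM with DI and 244 and 247 CPM with vehicle, again without overlap. Its log2 fold change was -0.23 (SE 0.045, 95% interval -0.34 to -0.12, adjusted p = 0.0242 by edgeR). Exons of Cerkl on the opposite strand cover 8.04% of the exon bases of Itga4. The call of Itga5 was lost without RANKL+DI replicate 2 (adjusted p = 0.0608) and without RANKL+Veh replicate 2 (adjusted p = 0.0607). With edgeR's exact test neither passed (adjusted p = 0.0650 for Itga5 and 0.0945 for Itga4), which left Itgav as the only one of the 3 lower calls. The call of Itga4 was also lost with a replicate block (adjusted p = 0.0501), without RANKL+DI replicate 2 (adjusted p = 0.0967), without RANKL+Veh replicate 1 (adjusted p = 0.0697) and without RANKL+Veh replicate 2 (adjusted p = 0.0913).

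**Figure D2:**
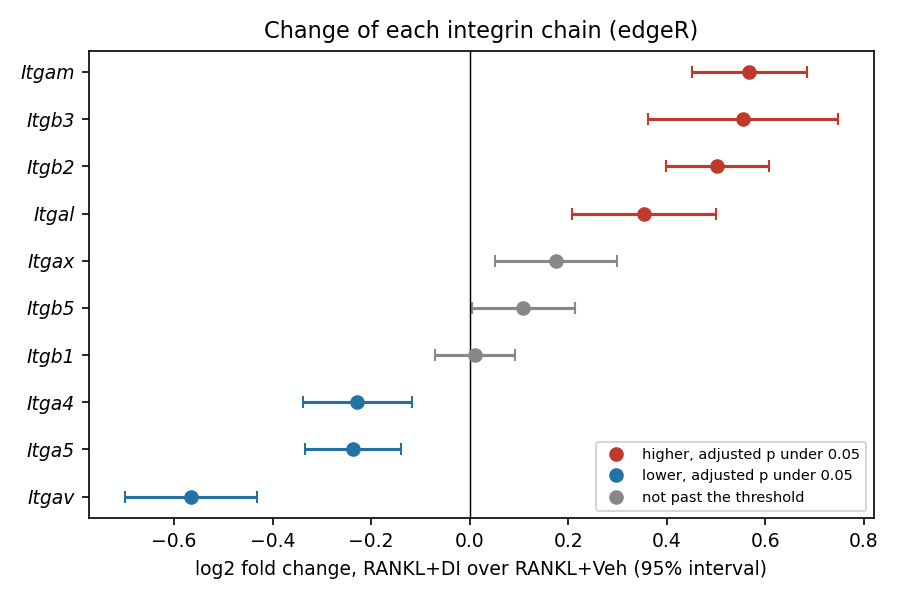
Log2 fold change of each integrin chain, RANKL+DI over RANKL+Veh, with 95% intervals from the edgeR fit. Itgav at -0.57, Itgam at 0.57, Itgb3 at 0.56 and Itgb2 at 0.50 lie farthest from 0, and the interval of Itgb1 spans 0.

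Levels were compared between genes on the deposited FPKM scale, which divides by gene length. With vehicle, Itgb2 was highest (356 ± 5.63 FPKM, SD, n = 2), followed by Itgam, Itgb1, Itgax, Itga5, Itgb5 and Itga4. Itgav (8.06 ± 0.206 FPKM) and Itgal came next and overlapped, and Itgb3 was lowest (3.11 FPKM). With DI the order was the same down to Itga4, and then ran Itgal (9.31 ± 0.318 FPKM), Itgav (5.07 ± 0.151 FPKM) and Itgb3 (4.26 ± 0.296 FPKM), with no overlap between neighbours. With lengths from the merged exons of GENCODE M21, Itgav and Itgb3 overlapped with DI, at 6.75 ± 0.224 and 6.47 ± 0.471 CPM per kb. With the same lengths, Itgal lay above Itgav with vehicle too, at 11.1 and 10.6 against 9.81 and 10.2 CPM per kb, so that the order of these chains was then the same in both groups. Itgb2 took 47.5% and 46.9% of the summed FPKM of the 10 chains with DI, against 42.1% and 41.8% with vehicle.

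Ratios within a library do not depend on scaling between libraries, and chains that share a partner were compared this way on the FPKM scale. For the beta chains of alpha v, the ratio of Itgb3 to Itgb5 was 0.123 and 0.115 with DI and 0.0880 and 0.0867 with vehicle, so that beta 5 exceeded beta 3 in every library while the ratio was 1.36-fold higher with DI. The level of such a ratio depends on the gene lengths used, while its change between the groups does not. Relative to Itgav itself, Itgb3 stood at 0.864 and 0.817 with DI and at 0.392 and 0.381 with vehicle. With merged exon lengths, Itgb3 stood at 0.985 and 0.931 times Itgav with DI and at 0.447 and 0.434 times with vehicle. Itgb5 stood at 7.02 and 7.11 times Itgav with DI and at 4.46 and 4.39 times with vehicle. For the alpha chains of beta 2, the ratio of Itgax to Itgam was 0.438 and 0.428 with DI and 0.559 and 0.580 with vehicle, 1.31-fold lower with DI. The ratio of Itga4 to Itga5 was 0.225 and 0.219 with DI and 0.222 and 0.219 with vehicle, and these values overlapped. The exact two-sided permutation test gave p = 0.333 for the first and the Itgax to Itgam ratio, which is the smallest p that 2 libraries against 2 allow, and p = 1 for Itga4 to Itga5.

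**Figure D3:**
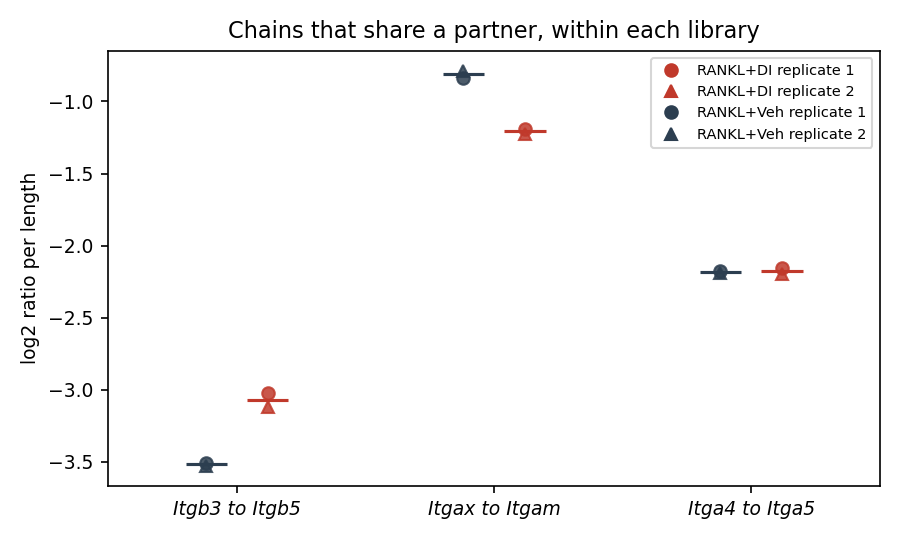
Log2 ratio per length of 3 pairs of chains that share a partner, within each library, with lines at the group means. Itgb3 to Itgb5 is higher with DI by 0.45, Itgax to Itgam is lower by 0.39, and the libraries of Itga4 to Itga5 overlap.

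Of the 16 other integrin chains, 8 were tested, and 1 rose and 2 fell with DI (37.5%, against 14.8% of all tested genes). Itga6, which pairs with beta 1 or beta 4 in laminin receptors, was counted 1631 and 1838 times with DI and 2850 and 2129 times with vehicle. It fell by 0.54 on the log2 scale (adjusted p = 0.0133 by edgeR), although a short Itga6 transcript shares sequence with 6 other genes. Itgb7, a partner of alpha 4 and alpha E, was counted 1983 and 1898 times with DI and 2755 and 2440 times with vehicle and fell by 0.44 (adjusted p = 0.0115 by edgeR). Itga8, the alpha chain of an RGD receptor, rose from 100 and 81 counts with vehicle to 171 and 179 with DI (log2 fold change 0.93, adjusted p = 0.00838 by edgeR). Itgb8, a further partner of alpha v, had 23 and 22 reads in the DI libraries and 6 and 10 in the vehicle libraries, a difference that did not pass the threshold (log2 fold change 1.45, SE 0.42, adjusted p = 0.0721). Itga1, Itga9, Itga10 and Itga11 had between 9 and 65 counts per library, with adjusted p-values of 0.679 to 0.860. Itga2b, the platelet partner of beta 3, had 4 and 1 reads in the DI libraries and 4 and 5 in the vehicle libraries, and Itgb6 was at 0.

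Of the proteins that switch integrins on or off, among them tail-binding proteins and the Rap GTPases with their regulators, 22 were tested, 3 rose and 3 fell (27.3%, median log2 fold change 0.04). The share was 14.8% over all tested genes and 23.8% over those as abundant as the chains, so that 27.3% was near the latter. Fermt3, kindlin-3, which with talin activates beta 1, beta 2 and beta 3 integrins in blood cells, rose with a log2 fold change of 0.28 (SE 0.041, adjusted p = 0.00900 by edgeR). Flnc, a filamin, rose from 30 and 18 counts to 56 and 53 (log2 fold change 1.16, adjusted p = 0.0422), and the adaptor Dok2 rose by 0.25 (adjusted p = 0.0434). Rap1b, a small GTPase upstream of talin, fell by 0.21 (adjusted p = 0.0150). Rasgrp1, an exchange factor of Ras and Rap GTPases, had 12 and 13 counts with vehicle and 0 in both DI libraries. This was at least 4.26-fold lower against a floor of 3 counts per library. Since Rasgrp1 passed the filter only through the vehicle libraries, its call, counted among the 3 that fell, is not evidence by itself. With at least 10 counts required in every library it was left out, and 5 of 21 tested genes were called. With any 1 library left out, fewer genes of the list were called, and fewer of all tested genes as well.

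Among 41 tested rows of kinases, adaptors and adhesion proteins downstream of integrins, 2 rose and 3 fell (12.2%, median log2 fold change 0.02), against 14.8% of all tested genes, so that the share was near the background. The directions depended on the setting, with 0 higher and 6 lower by library size only, 0 and 2 with a replicate block, and 4 and 1 without RANKL+Veh replicate 1. Src, the kinase needed for the ruffled border of osteoclasts, was counted 779 and 805 times with DI and 1263 and 1017 times with vehicle, and fell by 0.55 on the log2 scale (SE 0.077, adjusted p = 0.00813 by edgeR). Lcp2 (SLP-76), an adaptor, fell by 0.29 (adjusted p = 0.0226). Fcer1g, an ITAM adaptor that works with Syk, rose by 0.29 (adjusted p = 0.0368), and Ptk2b, the kinase Pyk2 that acts below beta 3, rose by 0.18 (adjusted p = 0.0302). Fewer genes of the list were called without RANKL+DI replicate 1, RANKL+DI replicate 2 or RANKL+Veh replicate 2. In these fits fewer of all tested genes were called as well.

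Of the integrin ligands, 22 were tested, 6 rose and 2 fell (36.4%, against 14.8% of all tested genes and 23.8% of those as abundant as the chains, median log2 fold change 0.10). With library size only, 2 were higher and 3 lower. Vtn, which encodes vitronectin itself, was at 0 in every library. C3, the source of the Mac-1 ligand iC3b, had the lowest value, with 2167 and 2102 counts with DI against 4646 and 4209 with vehicle, and fell by 1.08 on the log2 scale (SE 0.064, adjusted p = 6.44e-04 by edgeR). Icam1, a ligand of LFA-1 and Mac-1, fell by 0.22 (adjusted p = 0.0192). Of the called ligands that were higher, the 4 with the largest values were Edil3, Thbs1, Mfge8 and Spp1. Edil3 rose by 0.50 (adjusted p = 0.0268), Thbs1 by 0.39 (adjusted p = 0.0395) and Mfge8 by 0.29 (adjusted p = 0.0131), and Spp1, osteopontin, rose by 0.25 (adjusted p = 0.0391). Exons of Gm42793 on the same strand share bases with Spp1, and Icam1 shares sequence with Gm47079 on the opposite strand. With any 1 library left out, fewer ligands were called, and fewer of all tested genes as well.

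A list of 14 proteins that associate with integrins, most of them in the membrane, was tested in full, and 9 were called, each higher with DI (64.3%, median log2 fold change 0.32). Among all tested genes 7.14% were called higher, and of those as abundant as the chains 23.8% were called in either direction. With library size only, and without RANKL+Veh replicate 1, 7 were higher and 1 lower. The 4 largest increases were those of the tetraspanins Cd81, Cd53, Cd9 and Cd151. In this order, their log2 fold changes by edgeR were 0.79 (adjusted p = 8.20e-04), 0.51 (adjusted p = 0.00328), 0.49 (adjusted p = 0.00192) and 0.48 (adjusted p = 0.00356). Gm26728 on the opposite strand overlaps 10.7% of the exon bases of Cd9, and a transcript of Gm10575 shares sequence with Cd151. Cd81 was counted 2599 and 3030 times with DI and 1678 and 1515 times with vehicle, and the groups did not overlap.

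**Figure D4:**
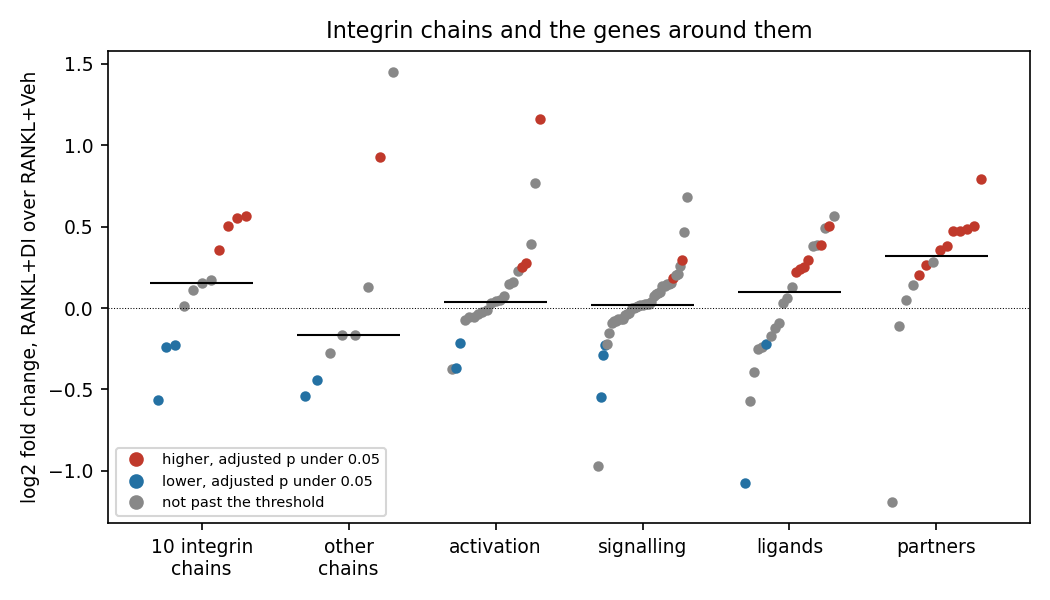
Log2 fold change of every tested row of the integrin chains and of 5 lists of genes around them, RANKL+DI over RANKL+Veh, with red points for genes called higher and blue points for genes called lower at an adjusted p under 0.05, grey points for the others, and lines at the medians. The partners have the highest median (0.32). Rasgrp1, at 0 in both DI libraries, is left off the axis but counted in the median of the activation list.

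Markers of other cells that carry these chains were measured as well, and their part in the results was not tested. Neutrophil markers summed to between 9.39 and 11.2 CPM with Ly6g and Retnlg at 0, and T and NK cell markers to between 2.74 and 3.6 CPM with Cd3e, Cd3g, Cd8a and Ncr1 at 0. Dendritic cell markers, relevant to Itgax, summed to between 1.26 and 2.03 CPM. Megakaryocyte and platelet markers, relevant to Itgb3, summed to 59.9 and 59.5 CPM with DI and 34.3 and 34.6 CPM with vehicle, and thus above Itgb3 itself in every library. Pf4 made up most of that sum, which without it was 2.68 and 2.08 CPM with DI and 2.09 and 2.16 CPM with vehicle, while Gp6 and Gp9 were among the markers at 0. Pf4 was called higher with DI (log2 fold change 0.83, adjusted p = 0.00129 by edgeR). B cell markers summed to 22.4 and 23.9 CPM with DI and 11.1 and 12.0 CPM with vehicle, mostly from Ighm, with Pax5 among the markers at 0. Ighm was also called higher (log2 fold change 1.03, adjusted p = 0.00298 by edgeR). Stromal and endothelial markers summed to 51.6 and 53.2 CPM with DI and 62.8 and 69.3 CPM with vehicle, also above Itgb3 in every library. Col1a1, Col1a2 and Kdr made up most of that sum, and Lepr was the only marker at 0. Kdr fell from 17.3 and 16.9 CPM with vehicle to 9.26 and 8.80 CPM with DI (log2 fold change -0.92, adjusted p = 0.00404 by edgeR). Kdr was the only call among the 7 tested stromal and endothelial markers (14.3%, against 14.8% of all tested genes).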

How the data were processed

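Unnormalized read counts for each gene were deposited by the authors, together with FPKM values made from these counts, with GRCm38 and mm10 as builds in the submitters' processing notes. The aligner, the counting program and the use of strand are not given in the sources used here. Groups were taken from the labels. Counts of 17843712 and 19403480 (RANKL+DI) and of 17979114 and 16085692 (RANKL+Veh) per library entered edgeR 4.0.16 under R 4.3.3 (TMM, filterByExpr, quasi-likelihood test, condition only) and Benjamini-Hochberg adjustment over 12590 genes, after the steps were tested on simulated data. Each gene had 2 residual degrees of freedom before moderation, and the common biological coefficient of variation was 0.0905. Intervals and floors rest on these counts.

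The members and gene lists were chosen with earlier results of these data known. The named genes were all members, the tested other integrin chains, and up to the 4 highest and 4 lowest called genes of each list. Some genes that this rule or the marker lists include are not reported here. Itgb6, Itga2b, Vtn and individual cell type markers were named after their values were seen. The promoter motifs were also chosen then. The alternatives were DESeq2 size factors, upper quartile factors, library size only, no filter, a minimum of 10 counts in each library, limma-voom (limma 3.58.1), the exact test of edgeR, the Wald test of DESeq2 1.42.0, the replicate number as a block, other forms of the ratios and each library left out in turn. Summing both Itgam rows was added after the data were seen. Gene positions and exon overlaps came from GENCODE M21, and transcripts were compared with BLAST+.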

Additional observations from a re-analysis of the deposited data

How the results depend on the processing

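Itgav, Itgb3, Itgb2 and Itgam were called in the same direction in every alternative, with log2 fold changes of -0.67 to -0.53, 0.45 to 0.63, 0.40 to 0.56 and 0.46 to 0.62. Itgal kept its call in 11 of 13 alternatives, Itga5 in 10 and Itga4 in 8, while Itgax was called in 2 and Itgb5 and Itgb1 in 0, by edgeR, DESeq2 and limma. Itgb1 changed sign with library size only (-0.093) and without RANKL+Veh replicate 1, and spanned -0.0044 to 0.027 with 1 library left out. The exact test called neither Itga5 nor Itga4. The number of called chains, 7, was 4 to 6 with 1 library left out, and the median of 0.16 was 0.086 to 0.24, and 0.053 with library size only. That scaling moved the median of all genes to -0.10 and called 548 genes higher and 1932 lower, against 899 and 969. Of the lists, activation fell from 6 calls to 3 with the DESeq2 Wald test and 2 to 3 with 1 library left out, signalling from 5 to 2 with the exact test and 1 to 5 with 1 library left out, and ligands from 8 to 5 with library size only, 4 with the exact test and 2 to 6 with 1 library left out. The log2 ratio of Itgax to Itgam was -0.34 with both Itgam rows summed. With 1 library left out, fewer of all tested genes were called as well, so that lower counts there are not particular to the chains or lists. The cause of these changes was not tested.

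Same-numbered libraries did not deviate together over all tested genes (correlation -0.0501). With 2 libraries per group this cannot tell whether same-numbered libraries came from the same mouse or culture. With a replicate block, 6 chains, 3 activation genes and 2 signalling genes were called, Itga4 had an adjusted p of 0.0501, and 1389 of all genes were called in place of 1868. With 1 library left out, the lone library of its group is assumed to vary like the other group. The counts limit the chains little, since the lowest count of any chain was 434, but 2 libraries per group leave no permutation p under 0.333.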
